A study of Mus musculus with 24 samples.

Results

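Ptpn5, Rxfp1, Rnase1, Vwde and Csmd3 are 5 autosomal mouse genes whose mRNA was higher in the female than in the male pituitary, among 35191 genes counted by RNA sequencing. They were picked by name for the difference between females and males of these same 24 libraries. Their female against male values are therefore a description, given with no test, and only contrasts between genotypes of 1 sex were tested. The libraries, 3 in each of 8 groups, came from pituitary polyA RNA of both sexes in 4 genotypes. Egr1cKO, the conditional knockout of the immediate early transcription factor gene Egr1, carries the genotype label FF (+), and the Egr1cKO control FF (-). The Cre control is labelled wt (+), and the wild type wt (-). FF is read here as floxed Egr1 and the sign as the presence of Cre, so the Cre control carries Cre without the floxed gene. The labels name neither the Cre driver nor the exon to be removed, and give no age or strain of the mice.

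The pituitary secretes the hormones that drive growth, lactation, thyroid, adrenal and gonadal function, and its lactotropes and gonadotropes respond to sex steroids. The 5 genes belong to unrelated families. Ptpn5 encodes STEP, a tyrosine phosphatase studied mostly in the brain, which dephosphorylates MAP kinases and the Src family kinase Fyn. Rxfp1 encodes the G protein-coupled receptor for relaxin, a peptide hormone best known for remodelling the reproductive tract in pregnancy. Rnase1 encodes the secreted pancreatic-type ribonuclease, which is also made by endothelial cells. Vwde encodes a protein with von Willebrand factor D and EGF domains, studied in limb regeneration in the axolotl. Csmd3 encodes a very large transmembrane protein with CUB and sushi domains, known mainly from neurons.

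All 5 genes lie on the minus strand of GRCm38 and are annotated as protein coding in GENCODE M21. Ptpn5 (ENSMUSG00000030854) spans chromosome 7 from 47077795 to 47133684. Rxfp1 (ENSMUSG00000034009) spans chromosome 3 from 79641611 to 79737880. Rnase1 (ENSMUSG00000035896) is a short gene on chromosome 14, from 51144998 to 51146785. Vwde (ENSMUSG00000079679) spans chromosome 6 from 13156299 to 13224965. Csmd3 (ENSMUSG00000022311) covers more than a megabase of chromosome 15, from 47580637 to 48792063. The antisense gene Gm14377 overlaps Ptpn5, and the sense-intronic Gm26984 lies in Rxfp1. The libraries are unstranded, so reads of Ptpn5 and Gm14377 cannot be told apart by strand. Gm26984 lies on the same strand as Rxfp1, so strand would not separate that pair in any library. The sources used here do not say how reads were counted. The counts given to Gm14377 averaged at most 1.69 CPM in any group, CPM being read counts scaled to the library total, and those given to Gm26984 at most 3.26 CPM. In males Gm14377 averaged 0.0739 CPM in Egr1cKO, 0.214 in its control, 0.0896 in the Cre control and 0.342 CPM in wild type. Male Ptpn5 averaged 0.0907, 0.304, 0.442 and 0.313 CPM in the same groups.

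The 250 bases before the annotated starts are shown because the 5 genes share a direction and the motif search described after them reads these bases. RefSeq (GRCm38.p6) held 4 such windows for 3 of the 5 genes, 2 of them for Ptpn5, and none for Rxfp1 and Csmd3. Each is written 5′ to 3′ in the direction of transcription. Capitals mark the core of the oestrogen response element, GGTCA, on either strand (TGACC on the other).
Ptpn5 outer start (chr7:47133685-47133934, minus strand): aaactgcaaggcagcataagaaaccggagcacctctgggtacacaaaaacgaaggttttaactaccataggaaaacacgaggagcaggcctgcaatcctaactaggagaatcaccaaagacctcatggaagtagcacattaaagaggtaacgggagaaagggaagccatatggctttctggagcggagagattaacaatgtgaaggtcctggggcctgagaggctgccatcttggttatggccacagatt
Ptpn5 inner start (chr7:47132599-47132848, minus strand): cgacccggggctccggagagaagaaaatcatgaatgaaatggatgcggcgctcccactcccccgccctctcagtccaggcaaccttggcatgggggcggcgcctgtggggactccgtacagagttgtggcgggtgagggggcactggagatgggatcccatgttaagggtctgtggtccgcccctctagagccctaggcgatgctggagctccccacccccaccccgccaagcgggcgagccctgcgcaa
Rnase1 (chr14:51146768-51147017, minus strand): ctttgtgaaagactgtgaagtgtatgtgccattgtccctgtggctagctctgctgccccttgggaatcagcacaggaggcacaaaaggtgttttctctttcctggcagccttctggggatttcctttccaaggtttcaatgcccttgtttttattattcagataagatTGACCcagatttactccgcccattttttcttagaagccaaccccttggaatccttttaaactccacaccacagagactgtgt
Vwde (chr6:13224966-13225215, minus strand): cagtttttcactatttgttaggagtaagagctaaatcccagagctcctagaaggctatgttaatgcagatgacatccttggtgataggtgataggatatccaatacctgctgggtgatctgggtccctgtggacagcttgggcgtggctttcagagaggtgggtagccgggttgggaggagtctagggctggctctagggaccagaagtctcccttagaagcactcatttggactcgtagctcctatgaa

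The full oestrogen response element, the core and its inverted copy 3 bases apart, was in 0 of the 4 windows, searched on both strands, and in 0.0639% of 32851 windows of the same length. The EGR site GCGTGGGCG was in 0 of the 4 and in 0.536% of all windows. The core GGTCA, which is part of the full oestrogen element and was added to the search after the data were seen, was in 1 of the 4 windows. It began 82 bases before the RefSeq start of Rnase1, which lies inside the GENCODE span given above. Of all windows, 35.2% held this core. These matches describe letters only.

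Total counts were 15486069 to 26255343 per library. In 24 of 24 libraries, Xist and the Y-linked genes fitted the labelled sex. Egr1 itself was at 7.55 to 162 CPM in female Egr1cKO, against 9.79 to 34.2 CPM in its control, and at 58.3 to 238 CPM in male Egr1cKO, against 22.7 to 51.1 CPM in its control. The female Cre control had 61.7 to 486 CPM of Egr1, against 10.9 to 167 CPM in female wild type. In the male Cre control it was at 25.3 to 486 CPM, against 19.1 to 51.5 CPM in male wild type. Counts per gene do not show whether an exon was lost. Floxed and unfloxed libraries carry 2 separate runs of title numbers, so that genotype and this numbering cannot be told apart. No label says that the libraries of a group came from separate animals, so a p-value covers the spread of these libraries alone, which may be technical. Prl, the lactotrope marker, and the summed somatotrope and corticotrope markers were present in all libraries. In bulk pituitary RNA, fewer cells of a type and less RNA per cell cannot be told apart.

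Ptpn5 was high in females with Cre, lower in females without it and barely detected in males. In females it measured 31.5, 52.8 and 41.3 CPM in Egr1cKO, against 12.2, 12.9 and 1.71 CPM in the Egr1cKO control. The female Cre control had 49.6, 41.6 and 49.99 CPM, against 4.28, 9.33 and 4.86 CPM in female wild type. The female groups with Cre did not overlap those without it. How many of all genes separate in this way between genotypes was not counted, for this gene or those below. In males Ptpn5 was near the detection limit everywhere, with Egr1cKO at 0.138, 0.135 and 0 CPM and the Egr1cKO control at 0, 0.552 and 0.361 CPM. The male Cre control had 0.751, 0.345 and 0.231 CPM, and male wild type 0.123, 0.269 and 0.545 CPM. All 12 male libraries together held 80 reads of Ptpn5, against 6330 in the 12 female ones, and neighbouring male groups in the order of means overlapped.

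Rxfp1, the relaxin receptor, was the most abundant of the 5 in females and varied least there. It measured 99.04, 262 and 145 CPM in female Egr1cKO, against 217, 238 and 92.6 CPM in the female Egr1cKO control. The female Cre control had 180, 184 and 166 CPM, against 192, 150 and 152 CPM in female wild type. The 4 female groups overlapped, and over the 12 female libraries the highest level was 2.84 times the lowest. Male libraries spread far more, with Egr1cKO at 0.229, 2.47 and 1.65 CPM and the Egr1cKO control at 1.62, 4.37 and 13.7 CPM. The male Cre control had 3.20, 2.49 and 13.0 CPM, and male wild type 3.09, 8.13 and 39.2 CPM. Over the 12 male libraries the highest level was 171 times the lowest, and 1 wild type library held the highest.

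Rnase1 libraries with Cre lay above those without it within each pair of groups, in both sexes. Female Egr1cKO libraries had 10.4, 5.09 and 6.64 CPM, against 0.535, 0.872 and 2.05 CPM in the female Egr1cKO control. The female Cre control had 10.9, 11.97 and 21.7 CPM, against 1.19, 4.29 and 2.24 CPM in female wild type. The female groups with Cre lay highest of the 4, and the lowest female library was an Egr1cKO control. Male Egr1cKO libraries had 1.15, 0.539 and 0.520 CPM, against 0.112, 0.158 and 0 CPM in the male Egr1cKO control. The male Cre control had 0.951, 0.575 and 0.308 CPM, and male wild type 0, 0 and 0.0389 CPM, the last being a single read. The male pairs did not overlap either, but they rest on 49 reads in Egr1cKO, 6 in its control, 42 in the Cre control and 1 in wild type.

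Vwde went the other way with Cre in females. It measured 13.7, 10.6 and 13.7 CPM in female Egr1cKO, against 26.0, 56.2 and 25.6 CPM in the female Egr1cKO control. The female Cre control had 12.9, 10.2 and 13.8 CPM, against 37.1, 39.6 and 33.8 CPM in female wild type. The female groups with Cre lay below those without it, with no overlap. Male Egr1cKO libraries had 3.30, 1.75 and 3.51 CPM of Vwde, against 5.08, 4.61 and 8.57 CPM in the male Egr1cKO control. The male Cre control had 1.55, 2.26 and 4.24 CPM, and male wild type 3.89, 3.28 and 9.54 CPM. The male Egr1cKO libraries lay below those of their control, while the male Cre control and wild type libraries overlapped. In male Egr1cKO control, Cre control and wild type, the library highest in Vwde was also the library highest in Rxfp1.

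Csmd3 was low throughout, and the lowest of the 5 genes per kilobase of exon in each female group. Female Egr1cKO libraries had 1.92, 2.35 and 2.38 CPM, against 0.496, 5.80 and 1.37 CPM in the female Egr1cKO control. The female Cre control had 2.66, 3.15 and 3.21 CPM, and female wild type 1.19, 3.49 and 3.796 CPM. Neighbouring female groups overlapped in the order of their means. Male Egr1cKO libraries were at 0.183, 0.224 and 0.173 CPM, against 0, 0.158 and 0.406 CPM in the male Egr1cKO control. The male Cre control had 0.200, 0.0383 and 0.539 CPM, and the 3 male wild type libraries held no read. The 12 male libraries held 45 reads in all, against 646 in the 12 female libraries.

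**Figure D1:**
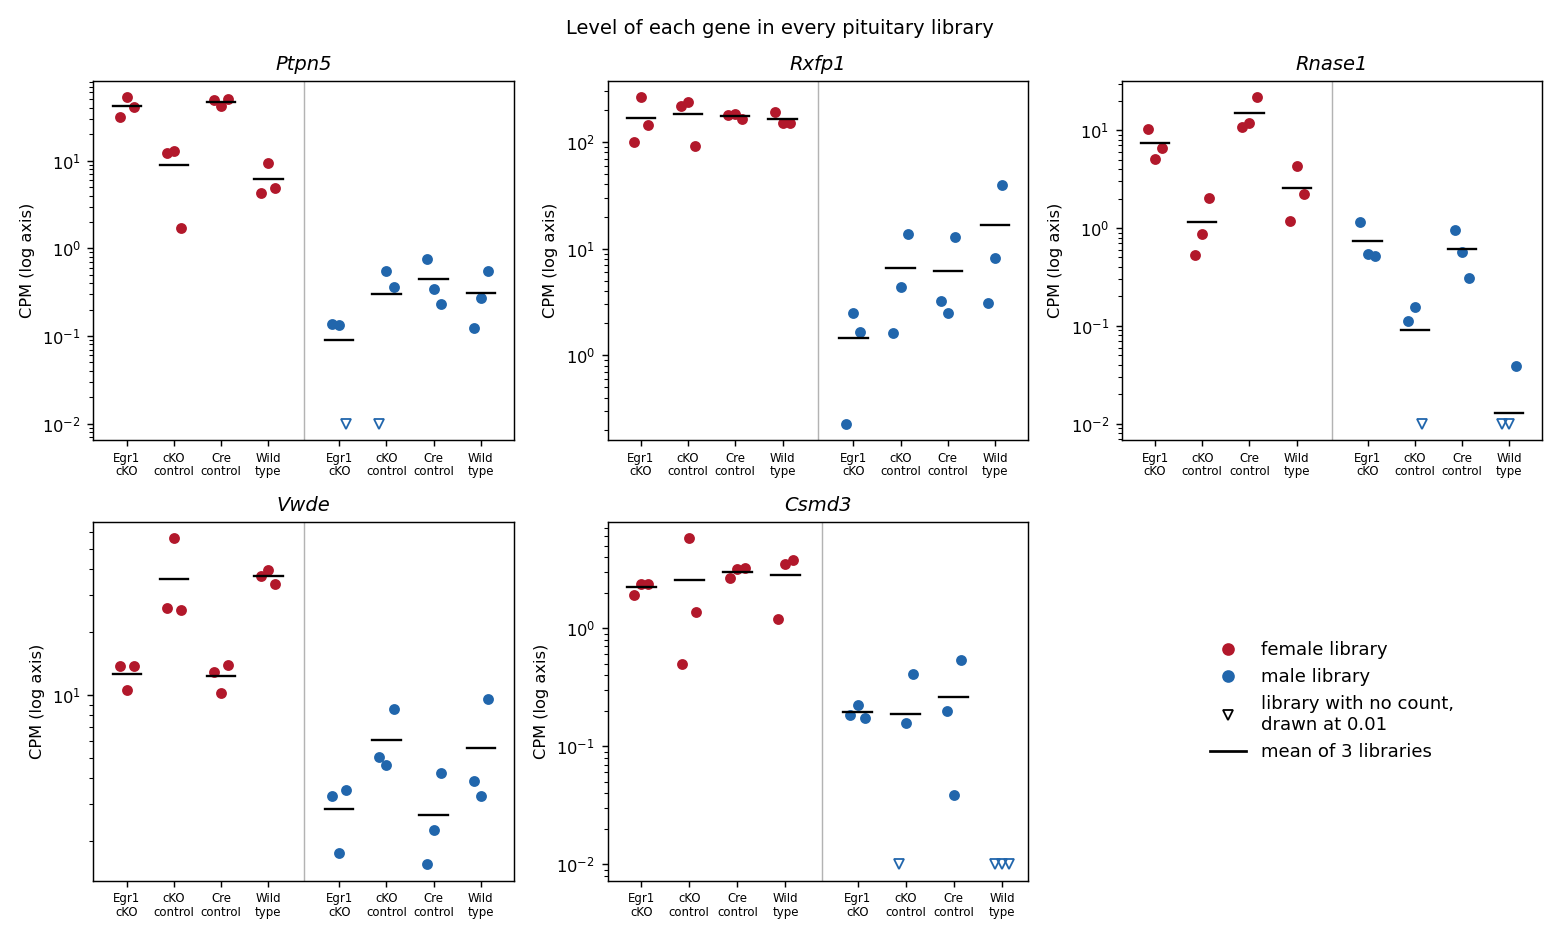
Level of each gene in every library, in CPM on a log axis, with female groups left of male groups and a bar at each mean of 3 libraries; open triangles are libraries with no count. Ptpn5 and Rnase1 stood higher in the female groups with Cre, at 31.5 to 52.8 CPM and 5.09 to 21.7 CPM, and Vwde stood lower, at 10.2 to 13.8 CPM.

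Levels were compared between genes per kilobase of exon. In the female Cre control Rxfp1 averaged 17.6 CPM per kilobase, Rnase1 14.99, Ptpn5 8.12, Vwde 1.69 and Csmd3 0.178 CPM per kilobase. In female wild type the averages were 16.4 CPM per kilobase for Rxfp1, 5.06 for Vwde, 2.59 for Rnase1, 1.06 for Ptpn5 and 0.167 CPM per kilobase for Csmd3. Vwde thus stood above Rnase1 and Ptpn5 in female wild type and below both in the female Cre control. All 5 genes passed the filter on low counts. Every one of the 12 female libraries exceeded its level of 0.461 CPM for each gene. Among the 12 male libraries, 12 exceeded it for Vwde, 11 for Rxfp1, 5 for Rnase1, 3 for Ptpn5 and 1 for Csmd3. Csmd3 therefore passed only through its female libraries.

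The size of the female against male difference set the genes apart. In each of the 4 genotypes, the 3 female libraries lay above the 3 male ones for 5 of 5 genes. Over all 21927 genes tested, the same held for 14.9% in Egr1cKO, 10.9% in the Egr1cKO control, 15% in the Cre control and 4.62% in wild type. The genes were chosen on these contrasts, so nothing is read from their count. For Ptpn5 the fitted log2 difference, female minus male, was 8.78 (SE 0.882) in Egr1cKO and 4.76 (SE 0.728) in its control. It was 6.76 (SE 0.748) in the Cre control and 4.19 (SE 0.725) in wild type. Without 1 male library each, replicate 2 of the Egr1cKO control and replicate 3 of wild type, the values of these groups were 5.45 and 4.87. They were 4.26 without male replicate 1 of the Egr1cKO control and 3.76 without female replicate 2 of wild type. The male Egr1cKO value rests on 6 reads, which gives a ratio of 457 with an exact counting interval of 210 to 1247.

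For Rxfp1 the log2 difference, female minus male, was 6.85 (SE 1.11) in Egr1cKO and 4.79 (SE 0.980) in its control. It was 4.82 (SE 0.981) in the Cre control and 3.28 (SE 0.906) in wild type. Female means of Rxfp1 lay between 164 and 183 CPM, and male means between 1.45 CPM in Egr1cKO, the genotype with the largest difference, and 16.8 CPM in wild type, the one with the smallest. The wild type value rests on 1 library: without male wild type replicate 3, which held 39.2 CPM, the log2 difference was 4.85, about that of the Egr1cKO control and the Cre control. Without male replicate 3 of their own group these 2 were at 5.90 and 5.96, and Egr1cKO was at 7.47 without male replicate 2. The lowest refits, each without another male library, were 2.79 in wild type and 4.34 in the Egr1cKO control. They were 4.43 in the Cre control and 6.36 in Egr1cKO. Vwde had the smallest differences of the 5 genes, at 2.15 (SE 0.406) in Egr1cKO, 2.56 (SE 0.402) in its control, 2.19 (SE 0.406) in the Cre control and 2.72 (SE 0.405) in wild type. Without male wild type replicate 3 its wild type value was 3.36, and without male wild type replicate 2 it was 2.44. Its means were lower with Cre than without it in both sexes.

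For Rnase1 the log2 difference was 3.32 (SE 0.664) in Egr1cKO, 3.59 (SE 0.790) in its control and 4.61 (SE 0.701) in the Cre control. That of the Egr1cKO control was 2.86 without female replicate 3 and 4.35 without male replicate 2. In wild type, 166 female reads stood against 1 male read, a ratio of 170 with an exact counting interval of 30.1 to 6766. Csmd3 had differences of 3.48 (SE 1.03) in Egr1cKO, 3.69 (SE 1.04) in its control and 3.50 (SE 1.01) in the Cre control. The value of the Egr1cKO control was 2.25 without female replicate 2 and 4.80 without male replicate 3. That of the Cre control was 2.99 without male replicate 2 and 4.64 without male replicate 3. In wild type, 187 female reads stood against 0 male reads, which makes Csmd3 at least 63.9-fold higher in females, taking 3 reads over the male group as the floor. The reads carry no molecular identifiers, so these intervals and floors hold counting error and nothing else.

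**Figure D2:**
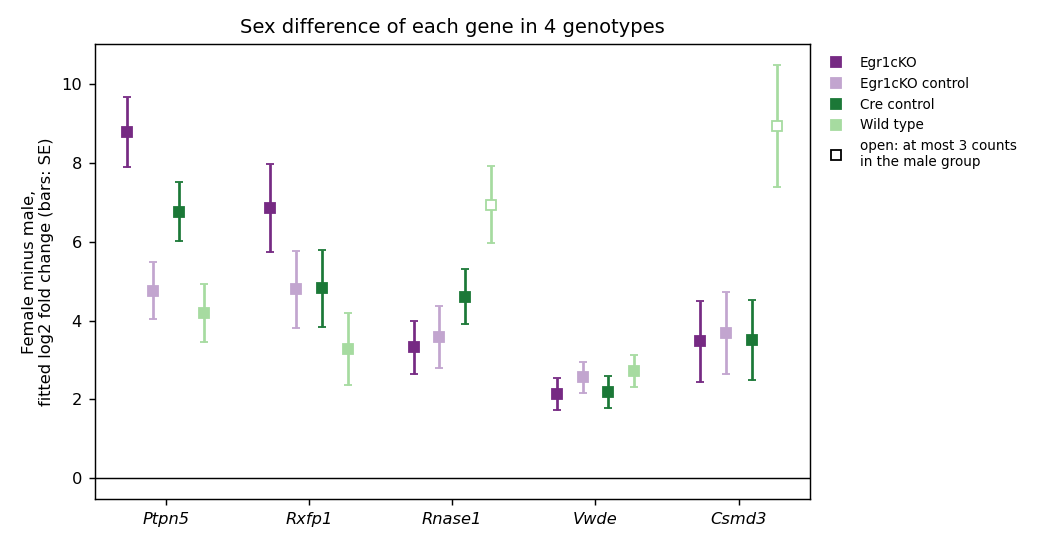
Fitted female minus male log2 difference of each gene in the 4 genotypes, with bars of 1 SE; values resting on 3 or fewer male reads are drawn open. Ptpn5 and Rxfp1 had their largest differences in Egr1cKO, at 8.78 and 6.85, while Vwde stayed between 2.15 and 2.72.

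The change of the female minus male difference with Cre is likewise a description. For Ptpn5 the log2 difference was larger by 4.02 (SE 1.21) in Egr1cKO than in its control, and by 2.57 (SE 1.03) in the Cre control than in wild type. For Rxfp1 it was larger by 2.07 (SE 1.29) and by 1.54 (SE 1.20) in the same pairs. The second of these values depends on single male libraries. Without male wild type replicate 3, wild type had a difference of 4.85, against 4.82 in the Cre control. Without its own male replicate 3, the Cre control was at 5.96. For Vwde the changes were -0.41 (SE 0.551) and -0.53 (SE 0.551), each smaller than its SE. Rnase1 changed by -0.27 (SE 0.828) between Egr1cKO and its control, and Csmd3 by -0.21 (SE 1.39). For these genes the pair of Cre control and wild type has at most 1 male wild type read, and no change is given.

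Across genotypes, 26 of the 21927 genes, or 0.119%, had all 12 female libraries above all 12 male ones, 22 of them on autosomes. Rxfp1, Vwde and Ptpn5 were among them. The lowest female level of Rxfp1 was 92.6 CPM, against a highest male level of 39.2 CPM. For Ptpn5 the bounds were 1.71 CPM in females and 0.751 CPM in males. Vwde was close to overlap, at 10.2 CPM in females and 9.54 CPM in males. Rnase1 and Csmd3 were not among the 26. Female Rnase1 went down to 0.535 CPM in the Egr1cKO control while male Rnase1 reached 1.15 CPM in Egr1cKO. Female Csmd3 went down to 0.496 CPM and male Csmd3 reached 0.539 CPM.

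**Figure D3:**
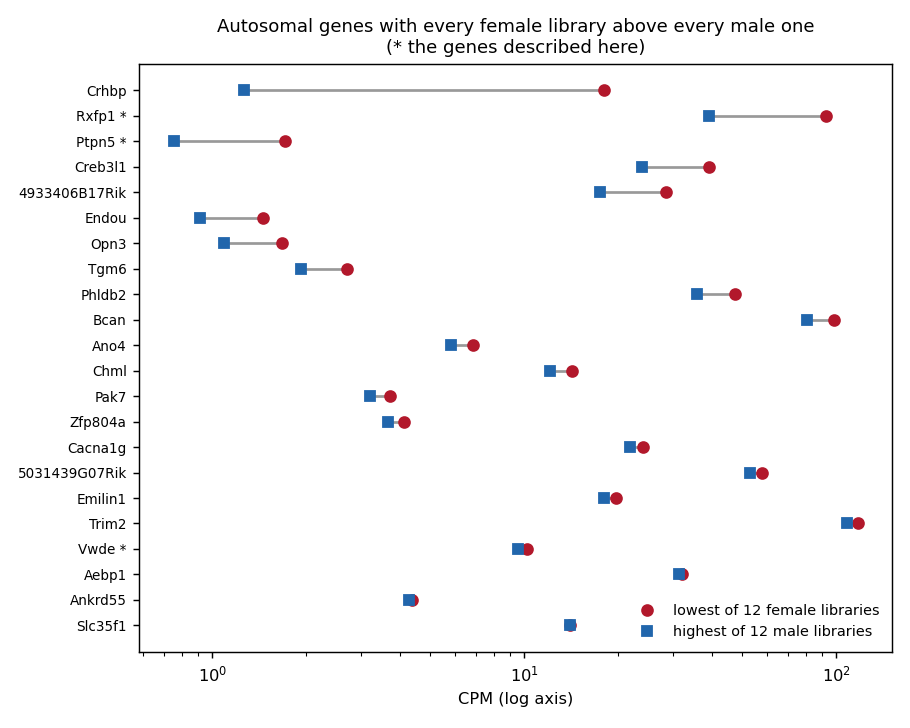
Lowest female and highest male level, in CPM on a log axis, of the 22 autosomal genes whose 12 female libraries all lay above the 12 male ones, with stars at Rxfp1, Ptpn5 and Vwde. Rxfp1 stood apart by 92.6 against 39.2 CPM and Vwde by only 10.2 against 9.54 CPM.

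In females 3 of the 5 genes differed between the Cre control, which has no floxed Egr1, and wild type. Ptpn5 and Rnase1 rose and Vwde fell in the female Cre control. Over all 21927 genes, 0.369% were called higher and 0.839% lower in this contrast. Calls are Benjamini-Hochberg adjusted p-values under 0.05 over all genes in edgeR's quasi-likelihood test. The libraries of the genotype contrasts also enter the female against male differences on which the genes were chosen, so the tests are not wholly independent of that choice.

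Ptpn5 averaged 47.0 ± 4.74 CPM in the female Cre control and 6.15 ± 2.76 CPM in female wild type (SD, n = 3 each). Its log2 fold change was 2.93 (SE 0.595), with an edgeR adjusted p of 0.0171. Rnase1, the ribonuclease, averaged 14.9 ± 5.97 CPM in the female Cre control and 2.57 ± 1.58 CPM in female wild type, a fitted change of 2.53 on the log2 scale (SE 0.628; edgeR adjusted p = 0.0443). Vwde averaged 12.3 ± 1.87 CPM in the female Cre control and 36.9 ± 2.92 CPM in female wild type, a fitted change of -1.58 on the log2 scale (SE 0.387; edgeR adjusted p = 0.0406). In all 3 cases the groups did not overlap, but the share of all genes that do the same was not counted. Nothing is therefore read from this separation. Rxfp1 had a log2 fold change of 0.10 with a 95% interval of -1.65 to 1.85, and Csmd3 of 0.09 with an interval of -1.81 to 1.99, so neither passed the test and changes of either sign lie within both intervals.

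These female calls held narrowly. The Ptpn5 call was lost without Cre control replicate 1 (edgeR adjusted p = 0.0512), Cre control replicate 3 (0.0827) or wild type replicate 3 (0.109). The Rnase1 and Vwde calls held only when wild type replicate 1 was left out; without any other library their edgeR adjusted p was 0.0724 to 0.203 for Rnase1 and 0.101 to 0.148 for Vwde. With only the 2 compared groups in the fit the edgeR adjusted p was 0.0849 for Ptpn5, 0.315 for Rnase1 and 0.142 for Vwde.

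Egr1cKO females showed changes in the same 3 genes against their own control. Ptpn5 and Rnase1 rose, where 0.762% of all genes were called higher, and Vwde fell, where 1.45% were called lower. Ptpn5 averaged 41.9 ± 10.7 CPM in female Egr1cKO and 8.94 ± 6.27 CPM in the female Egr1cKO control, a fitted change of 2.23 on the log2 scale (SE 0.577; edgeR adjusted p = 0.0445). Rnase1 averaged 7.37 ± 2.71 CPM in female Egr1cKO and 1.15 ± 0.797 CPM in the control, a fitted change of 2.67 on the log2 scale (SE 0.641; edgeR adjusted p = 0.0260). Vwde averaged 12.7 ± 1.80 CPM in female Egr1cKO and 35.9 ± 17.6 CPM in the control, a fitted change of -1.503 on the log2 scale (SE 0.386; edgeR adjusted p = 0.0378). Rxfp1 had a log2 fold change of -0.11 (95% interval -1.86 to 1.63) and Csmd3 of -0.19 (95% interval -2.10 to 1.72), and neither passed.

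These calls also depended on single libraries. The Ptpn5 call held without Egr1cKO replicate 1 only, and its edgeR adjusted p was 0.0697 to 0.110 without any one of the other libraries. Rnase1 was no longer called without Egr1cKO replicate 1 (0.0633), Egr1cKO replicate 3 (0.0577), Egr1cKO control replicate 1 (0.0999) or Egr1cKO control replicate 2 (0.115), all as edgeR adjusted p. Vwde was no longer called without Egr1cKO replicate 1 (0.0630), Egr1cKO replicate 2 (0.114), Egr1cKO replicate 3 (0.111) or Egr1cKO control replicate 2 (0.219). The last of these held 56.2 CPM of Vwde, and without it the log2 fold change was -1.03. With only the 2 compared groups in the fit, Ptpn5 was not called either (edgeR adjusted p = 0.163).

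The Egr1cKO effect and the Cre effect were then set against each other in 1 test. None of the 5 genes was called in females, where 1 of all genes was, or 0.00456%, and 2151 genes had an unadjusted p under 0.05. The log2 fold change of Egr1cKO beyond Cre in females was -0.70 for Ptpn5 (95% interval -2.37 to 0.968), 0.14 for Rnase1 (-1.63 to 1.91) and 0.08 for Vwde (-1.06 to 1.21). These intervals leave room for differences of more than 1 log2 unit in either direction for Rnase1 and Vwde. In males 0 genes of 21927 were called in the same test, none of the 5 among them, and 233 had an unadjusted p under 0.05. The Egr1cKO control against wild type called 0 genes of all in either sex, with 3247 at an unadjusted p under 0.05 in females and 196 in males. DESeq2 also called 0 of the 5 genes in each of these 4 contrasts and in the Egr1cKO effect in males.

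Males gave 1 call among the 5 genes. Rnase1 rose in the male Cre control against male wild type, where 0.0365% of all genes were called higher and 0.196% lower, with a fitted log2 value of 4.86 (SE 1.03; edgeR adjusted p = 0.0385). It rests on 42 reads in the Cre control against 1 in wild type, a ratio of 37.4 with an exact counting interval of 6.36 to 1512. The call was lost when any of the 6 libraries was left out (edgeR adjusted p 0.0668 to 0.190). Csmd3 had 19 reads in the male Cre control, against 0 in male wild type, at least 5.64-fold higher against a floor of 3 reads over the group, and was not called (edgeR adjusted p = 0.180). Vwde was at -1.05 on the log2 scale (SE 0.401; edgeR adjusted p = 0.349) and Rxfp1 at -1.44 (SE 0.877; edgeR adjusted p = 0.594). Ptpn5 was at 0.36 (SE 0.834; edgeR adjusted p = 0.932).

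Egr1cKO males gave no call among the 5 genes, where 0% of all genes were called higher and 0.041% lower, 9 genes in all, with 1441 at an unadjusted p under 0.05. Rnase1 held 49 reads in male Egr1cKO against 6 in the control, a ratio of 7.96 with an exact counting interval of 3.41 to 22.7 (fitted log2 2.94, SE 0.796, edgeR adjusted p = 0.252). Ptpn5 held 6 reads in male Egr1cKO against 22 in the control, a ratio of 0.266 (exact interval 0.0882 to 0.676, edgeR adjusted p = 0.849). On the log2 scale the change was -2.18 for Rxfp1 (SE 0.991; edgeR adjusted p = 0.747), -1.09 for Vwde (SE 0.401, edgeR adjusted p = 0.576) and 0.02 for Csmd3 (SE 1.06, edgeR adjusted p = 1). With no filter on low counts, Rxfp1 and Rnase1 were called here and Rxfp1 and Csmd3 joined Rnase1 in the male Cre effect.

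**Figure D4:**
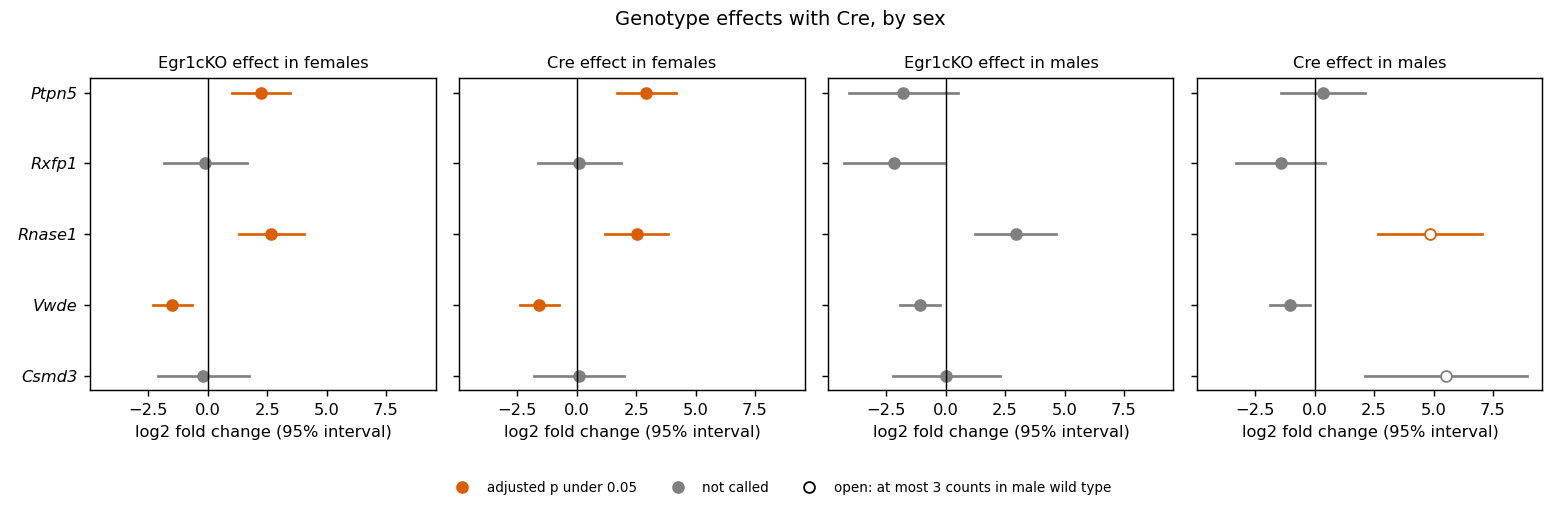
Fitted log2 fold changes of the 5 genes with 95% intervals, Egr1cKO against its control and Cre control against wild type, by sex; orange points have an edgeR adjusted p under 0.05 and open points rest on at most 3 male wild type reads. In both female panels Ptpn5 and Rnase1 lay above 0 and Vwde below it, and in the male panels 1 point was called, Rnase1 in the Cre effect.

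Other measures also differed between these female groups. The share of counts from mitochondrially encoded genes was 9.43% ± 0.884 in female Egr1cKO and 4.90% ± 1.76 in its control (SD, n = 3 each), without overlap. It was 5.52% to 6.69% in the female Cre control, within the range of female wild type, where replicate 1 had 10.1% and the others 2.14% and 2.695%. With this share as a covariate, Ptpn5, Rnase1 and Vwde were still called in both female contrasts. The summed level of 4 corticotrope and melanotrope markers was 82191 to 226853 CPM in female Egr1cKO, against 11858 to 39211 CPM in its control, and Pomc and Pcsk2 of the 4 were called higher. It was 51621 to 94783 CPM in the female Cre control, against 36338 to 40786 CPM in female wild type, with none of the 4 called. The summed 5 markers of the posterior lobe and pituicytes were 304 to 418 CPM in female Egr1cKO, against 159 to 167 CPM in its control, with Oxt called higher. They were 256 to 281 CPM in the female Cre control, against 150 to 215 CPM in female wild type, with none called. No marker of these lists was at 0 in any group, and their part in the changes of the 5 genes was not tested.

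The female Cre control was also higher in the summed thyrotrope and gonadotrope markers, with 1 gene of each list called. The sum of 3 thyrotrope markers was 612 to 740 CPM in the female Cre control, against 240 to 254 CPM in female wild type, and Tshb of the 3 was called higher. The sum of 3 gonadotrope markers was 1955 to 3222 CPM in the female Cre control, against 903 to 1141 CPM in female wild type. Of the 3 only Cga was called higher, and Fshb and Gnrhr were not called. In Egr1cKO females both sums overlapped those of the control. Prl, the lactotrope marker, was at 57812 to 75588 CPM in the female Cre control, against 113214 to 151155 CPM in female wild type, and was not called. The part of these genes in the changes was not tested. Of the somatotrope, stem cell, endothelial, mural and fibroblast, leukocyte and red blood cell markers, 0 were called in any of the 4 contrasts with Cre, but some of their sums did not overlap between groups. In female Egr1cKO the somatotrope sum was 45218 to 64387 CPM, against 106858 to 190396 CPM in the control, and Prl was at 20819 to 48958 CPM, against 81226 to 140028 CPM. The stem and folliculostellate sum was 102 to 146 CPM in female Egr1cKO and 91.2 to 95.3 CPM in its control, the mural and fibroblast sum 273 to 343 CPM and 184 to 256 CPM, and the leukocyte sum 75.02 to 111 CPM and 43.2 to 74.94 CPM. In the female Cre control the somatotrope, stem, mural and leukocyte sums overlapped those of wild type. Rnase1 is also made by endothelial cells, whose 4 markers summed to 89.2 to 92.8 CPM in female Egr1cKO and 86.4 to 136 CPM in its control. They summed to 104 to 122 CPM in the female Cre control and 94.8 to 114 CPM in female wild type, overlapping in both pairs. The part of these sums in the changes was not tested. Rnase1 is abundant in the pancreas, so acinar markers were checked. The 3 of 4 found in the table summed to 0.283 to 2.31 CPM over all libraries, with 0 to 2 of the 3 at 0 in a group, and 0 of the 2 tested were called in either Cre contrast of either sex.

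In males, where Rnase1 was called in the Cre effect, several sums also stood apart. The male Cre control had 41205 to 89786 CPM of somatotrope markers, against 188705 to 278433 CPM in male wild type, and 3046 to 4253 CPM of Prl, against 36701 to 43579 CPM. Its thyrotrope sum was 736 to 1203 CPM, against 362 to 591 CPM in male wild type, its gonadotrope sum 2922 to 6764 CPM, against 2560 to 2830 CPM, and its stem and folliculostellate sum 172 to 187 CPM, against 129 to 149.6 CPM. The endothelial sum overlapped, at 93.6 to 179 CPM in the male Cre control and 144 to 178 CPM in male wild type. In male Egr1cKO the somatotrope sum and Prl lay below those of the control, and the thyrotrope, corticotrope and melanotrope, stem and folliculostellate, posterior lobe and leukocyte sums above them. Of all these markers only Prl was called in males, and their part in the Rnase1 call was not tested.

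Sex steroid receptors and oestrogen-responsive pituitary genes were counted as a list of 8. Of these, 1 was called lower in Egr1cKO females, 0 were in Cre control females, 1 was in Egr1cKO males and 2 were in Cre control males, where 1.45%, 0.839%, 0.041% and 0.196% of all genes were called lower. None of the 8 was called higher in any of the 4 contrasts. Prl, the lactotrope hormone, had a log2 fold change of -1.57 in Egr1cKO females (SE 0.368, edgeR adjusted p = 0.0230), -2.60 in Egr1cKO males (SE 0.381, edgeR adjusted p = 0.00215) and -3.46 in Cre control males (SE 0.395, edgeR adjusted p = 3.1e-05). In Cre control females Prl was at -1.04 (SE 0.363, edgeR adjusted p = 0.144) and was not called. Greb1, an oestrogen-induced cofactor of the oestrogen receptor, had -1.25 in Cre control males (SE 0.275, edgeR adjusted p = 0.0487). The Prl call in Egr1cKO females was lost without Egr1cKO replicate 1 or 3 or control replicate 2 or 3 (edgeR adjusted p up to 0.108), and that in Egr1cKO males without Egr1cKO replicate 2 (0.0927). The Greb1 call was lost without any 1 of the 6 libraries (edgeR adjusted p up to 0.279), with DESeq2 size factors and with a mean of at least 1 CPM (up to 0.0618). The median log2 fold change of the list was -0.54 in Egr1cKO females and -0.24 in Cre control females, against -0.05 and -0.04 over all genes. In Egr1cKO males it was -0.22 and in Cre control males 0.21, against 0.03 and 0.01 over all genes, so the median was positive in the contrast with the most calls.

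Esr1, the oestrogen receptor alpha gene, averaged 52.3 ± 7.04 CPM in female Egr1cKO and 93.9 ± 13.0 CPM in its control, and 72.7 ± 8.69 CPM in the female Cre control and 137 ± 60.9 CPM in female wild type (SD, n = 3 each). Its log2 fold change was -0.84 in Egr1cKO females (edgeR adjusted p = 0.0606) and -0.91 in Cre control females (edgeR adjusted p = 0.0544), so it passed in neither. In Egr1cKO and in the Cre control all 3 female Esr1 libraries lay below the 3 male ones, and in the other genotypes they overlapped. How many of all genes have females below males was not counted. The progesterone receptor gene Pgr had group means of 9.65 to 23.8 CPM and was not called in the 4 contrasts with Cre.

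Relatives of the 5 genes were measured from lists of their families. Nothing is read from their separations between the sexes, as the share of all genes with males above females was not counted. Of 8 relaxin family genes 5 were tested, and 0 were called in the 8 genotype contrasts. Rxfp2, the receptor for insulin-like peptide 3, averaged 3.88 ± 1.66 CPM in female Egr1cKO and 0.801 ± 0.214 CPM in male Egr1cKO, without overlap. It averaged 3.45 ± 0.955 CPM in the female Cre control and 0.707 ± 0.351 CPM in the male Cre control, also without overlap, and overlapped between the sexes in the other genotypes. Rln1, the relaxin gene itself, had no read in 7 of the 8 groups, and its only reads were 17 in 1 male Cre control library. Rln3, Insl3, Insl5 and Insl6, the other ligand genes, averaged at most 2.55 CPM in any group. Insl6 was lower in female than in male libraries, without overlap, in Egr1cKO, at 0.778 ± 0.506 CPM in females and 2.04 ± 0.232 CPM in males, and in the Egr1cKO control, at 0.743 ± 0.243 and 1.56 ± 0.565 CPM. Insl5 was higher in the female than in the male Egr1cKO control, at 1.11 ± 0.421 and 0.195 ± 0.171 CPM.

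The phosphatase relatives and substrates of STEP were all tested, and 0 of 8 were called in any genotype contrast. Ptprr, a related phosphatase of MAP kinases, had its 3 female libraries above the male ones in wild type, at 14.6 ± 3.88 CPM in females and 7.46 ± 2.53 CPM in males. In the ribonuclease family 7 of 9 listed genes were in the table and 4 were tested, with 0 called. Rnase4 was lower in female than in male Egr1cKO, at 16.5 ± 3.85 and 24.8 ± 0.829 CPM, and in the female than in the male Egr1cKO control, at 16.3 ± 2.16 and 20.98 ± 2.57 CPM, without overlap in either. Ang, the angiogenin gene, was higher in the female than in the male Cre control, at 3.18 ± 0.419 and 2.12 ± 0.149 CPM, also without overlap. Rnh1, the cytosolic inhibitor of these ribonucleases, had group means of 120 to 139 CPM, the lowest in female and the highest in male Egr1cKO, which did not overlap. The 2 relatives of Csmd3, Csmd1 and Csmd2, were both tested and not called, and Csmd1 was higher in female than in male Egr1cKO, at 2.60 ± 0.807 and 1.16 ± 0.111 CPM, without overlap.

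Likeness was measured as Pearson's r of log2 CPM over the 24 libraries, which share sex and genotype. It therefore holds the steps between sexes and between genotypes, and their parts were not separated. Ptpn5 was most like Cacna1g (r = 0.951), a T-type calcium channel gene, Cyfip2 (0.921) and Wdr64 (0.920). Cacna1g averaged 84.8 ± 27.7 CPM in female Egr1cKO and 30.8 ± 5.83 CPM in its control, against 10.4 ± 1.28 CPM in male Egr1cKO and 13.8 ± 7.93 CPM in the male control. Rxfp1 was most like Crhbp (r = 0.939), which encodes the binding protein of corticotropin-releasing hormone, Trim16 (0.922) and Wdr64 (0.902). Crhbp had no group mean above 0.734 CPM in males and none under 49.2 CPM in females. Both Cacna1g and Crhbp were among the 26 genes with all female libraries above all male ones.

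Rnase1 was most like Lcorl (r = 0.867), the small heat shock protein gene Hspb8 (0.845) and Aebp1 (0.843). Aebp1 averaged 165 ± 57.2 CPM in female Egr1cKO and 39.2 ± 8.39 CPM in its control, and 211 ± 33.1 CPM in the female Cre control and 43.5 ± 0.698 CPM in female wild type. Vwde was most like Col1a2 (r = 0.899), a collagen gene, BC034090 (0.883) and Ehf (0.878). Col1a2 averaged 245 ± 62.6 CPM in female Egr1cKO and 402 ± 93.6 CPM in its control. Csmd3 was most like Dlgap1 (r = 0.859), Reln (0.851), the gene of the extracellular protein reelin, and Xist (0.829), the X inactivation RNA.

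Among themselves the 5 genes were less alike once group means were removed. Of their 10 pairs, 4 had r of 0.429 to 0.465 within groups, namely Rxfp1 with Csmd3 (0.465) and with Vwde (0.446), and Csmd3 with Ptpn5 (0.451) and with Vwde (0.429). Over the 24 libraries these 4 had 0.695 to 0.845. Ptpn5 and Rxfp1 had r = 0.881 over the libraries and 0.355 within groups, and Ptpn5 and Vwde 0.659 and 0.084. The 4 pairs with Rnase1 were negative within groups, from -0.424 with Rxfp1 to -0.038 with Ptpn5, and lay at 0.414 to 0.810 over the libraries. Single male libraries held 0 to 15 reads of Ptpn5, 0 to 25 of Rnase1 and 0 to 14 of Csmd3. For pairs with these genes, r within groups therefore also holds counting error. Libraries of a group differ in depth and makeup, and all genes of a library share these. Their part in r within groups was not tested, and these values are descriptions with n = 24.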

How the data were processed

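The authors deposited raw counts, whole numbers of reads per Ensembl gene, for 24 unstranded polyA pituitary libraries. The submitters' processing notes name Trim Galore 3.8.2, FastQC, STAR 2.7.9 and the build GRCm38. For the counting tool and its annotation, nothing is given in the sources used here. Of 35191 identifiers, 35077 matched GENCODE M21 and 114 did not.

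The model was fitted by edgeR 4.0.16 under R 4.3.3. Its filterByExpr left 21927 genes, libraries were scaled by TMM, and a robust quasi-likelihood fit with 8 group means left 16 residual degrees of freedom. Fitted folds used a prior count of 0.125. Adjusted p-values are Benjamini-Hochberg values over 21927 genes at a threshold of 0.05. CPM values are counts divided by the TMM-scaled library total and given on edgeR's usual scale for counts per library. Intervals of 95% use the SE and the residual degrees of freedom. The fit was run on simulated counts for the Cre effect in females, with large changes in well-counted genes only. That run does not cover small changes or genes with few reads. No library repeated another of its group, with chi-square values per degree of freedom of 16.3 or more over 24 pairs.

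The members and lists were chosen with earlier results of these data known. Named are the 5 members, for each the 3 genes with the highest Pearson r of log2 CPM (prior count 0.5) among genes averaging at least 1 CPM (without Gm and Rik names, pseudogenes and other members), called list genes, Esr1 and Pgr. Some genes of the lists are not reported here singly and stay in the list counts. Further list and marker genes (Rxfp2, Rln1, Rln3, Insl3, Insl5, Insl6, Ptprr, Rnase4, Ang, Rnh1, Csmd1, Csmd2 and the called markers) were named after their values were seen. Alternatives were DESeq2 1.42.0, its size factors, 2 other filters, fits of the compared groups alone, a mitochondrial covariate, and leaving out each library.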

Additional observations from a re-analysis of the deposited data

How the results depend on the processing

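Of 307 refitted values of single genes from the genotype tests, 245 kept direction and side of the threshold, 36 lost the call, 4 gained it and 22 changed sign, all of the last uncalled. All 160 refitted female minus male differences were positive. With only the compared groups, 0 of the 5 genes were called in the Cre effect in females and 0 in the Cre effect in males, where Rnase1 did not pass the filter. With no filter on low counts, 3 genes were called in the Cre effect in males (Rxfp1, Rnase1 and Csmd3), 2 in the Egr1cKO effect in males (Rxfp1 and Rnase1) and 1 in the male Egr1cKO control against wild type (Rxfp1). There Rxfp1 had an SE of 0.227 in the Cre effect (edgeR adjusted p = 1.7e-07) and 0.256 in the Egr1cKO effect (3.21e-14), against 0.877 and 0.991 with the filter and the cause was not tested. Leaving out 1 library at a time left 0 to 3 calls in the Cre effect in females, 0 in males, and 0 to 2 in the Egr1cKO effect in females. Values near 0 changed sign. Csmd3 in Egr1cKO females was 0.0087 with the mitochondrial covariate and -0.69 to 1.25 on leaving out 1 library. In Egr1cKO males it was -0.024 with DESeq2, -0.021 with its size factors, -0.012 with a mean of at least 1 CPM and -0.52 to 1.13 on leaving out 1 library. On leaving out 1 library the Cre effect was -0.28 to 0.36 for Csmd3 in females, -0.21 to 1.04 for Ptpn5 in males and -2.59 to 0.14 for Rxfp1 in males. Rxfp1 was -0.58 to 0.16 in Egr1cKO females, and beyond Cre in females Rnase1 was -0.44 to 0.87 and Vwde -0.12 to 0.55. The causes were not tested. A group left with 2 libraries takes its spread from all groups in the fit. No paired analysis was possible because the groups share no replicate numbers in the labels. Depth limits the male values of Ptpn5, Rnase1 and Csmd3, which rest on 80, 98 and 45 reads over 12 libraries.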
